A study of Mus musculus with 8 samples.

Results

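ATP-binding cassette (ABC) genes of subfamilies A to G were compared between EpCAM+ and EpCAM- LSK cells of *Zeb1-/-* mice. Members were the protein-coding genes whose symbol is Abc followed by a letter from a to g and a number, which gave 50 of the 54532 genes in the table (16 in subfamily A, 10 in B, 10 in C, 4 in D, 1 in E, 3 in F and 6 in G). The comparison rests on 8 RNA-Seq libraries, 4 of EpCAM+ and 4 of EpCAM- cells that were sorted from bone marrow as Lin- C-KIT+ SCA-1+ (LSK, the compartment that holds hematopoietic stem and progenitor cells). All were collected on day 14 after pIpC treatment had ended, from C57BL/6 mice that carried the floxed *Zeb1* alleles and *Mx1-Cre* and were 8 to 12 weeks old. The deletion of *Zeb1*, a transcriptional repressor of epithelial genes, is thus shared by both fractions, and no library of a control mouse was analysed here. *Mx1-Cre* responds to interferon and is active in blood cells and in other tissues too, so that the deletion was not limited to LSK cells. The labels give 4 mice, and they do not say that same-numbered libraries came from the same mouse, so that p-values measure the spread between these samples. Across genes, deviations from the fraction mean correlated at 0.205 to 0.356 in the 4 pairs of equal number, so the numbers pair the samples. The main test and the permutation tests leave this pairing out.

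ABC proteins bind and hydrolyze ATP, and most use it to move lipids, sterols, peptides, metal-linked compounds or drugs across a membrane. Members of subfamilies A and G mainly move lipids and sterols, members of B and C include the multidrug exporters and the transporters of mitochondria and lysosomes, and members of D act mostly in peroxisomes. Those of E and F have no membrane-spanning part and act in translation. In bone marrow, export of a Hoechst dye by *Abcg2* and by P-glycoprotein, the product of *Abcb1a* and *Abcb1b* in the mouse, is a known property of stem cells.

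Of the 50 members, 31 passed the filter on low counts and were tested, and 19 differed between the fractions (adjusted p under 0.05, edgeR quasi-likelihood test with Benjamini-Hochberg adjustment over all 13560 tested genes). In EpCAM+ cells 7 members were higher and 12 were lower. The number higher was 11 with the replicate number as a block and 4 without EpCAM- replicate 3, and the number lower was 12 and 11. Among all tested genes, 42.6% differed, 21.8% higher and 20.8% lower. The median log2 fold change (EpCAM+ over EpCAM-) of the tested members was -0.12, against 0.02 over all tested genes, and single members ranged from -6.10 to 3.17. Of the 19 members past the threshold, 5 were more than 2-fold higher and 6 more than 2-fold lower, where 9.15% and 2.81% of all tested genes were past the threshold and changed by this much. The values of the 4 EpCAM+ libraries lay outside the range of the 4 EpCAM- libraries for 18 members, above it for 6 and below it for 12, where 40.1% of all tested genes were separated in this way. Members higher in EpCAM+ cells were *Abcg3*, *Abcb1a*, *Abca5*, *Abca4*, *Abcc3*, *Abcb1b* and *Abcc1*, and members lower included *Abcg4*, *Abcb4*, *Abcd2*, *Abca8b*, *Abcb10*, *Abcb9*, *Abce1*, *Abcf2*, *Abcb8*, *Abcf1* and *Abcd3*. By subfamily, the higher and lower members were 2 and 1 of 7 tested in A, 2 and 5 of 7 in B, 2 and 0 of 5 in C, 0 and 2 of 4 in D, 0 and 1 of 1 in E, 0 and 2 of 3 in F, and 1 and 1 of 4 in G.

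**Figure D1:**
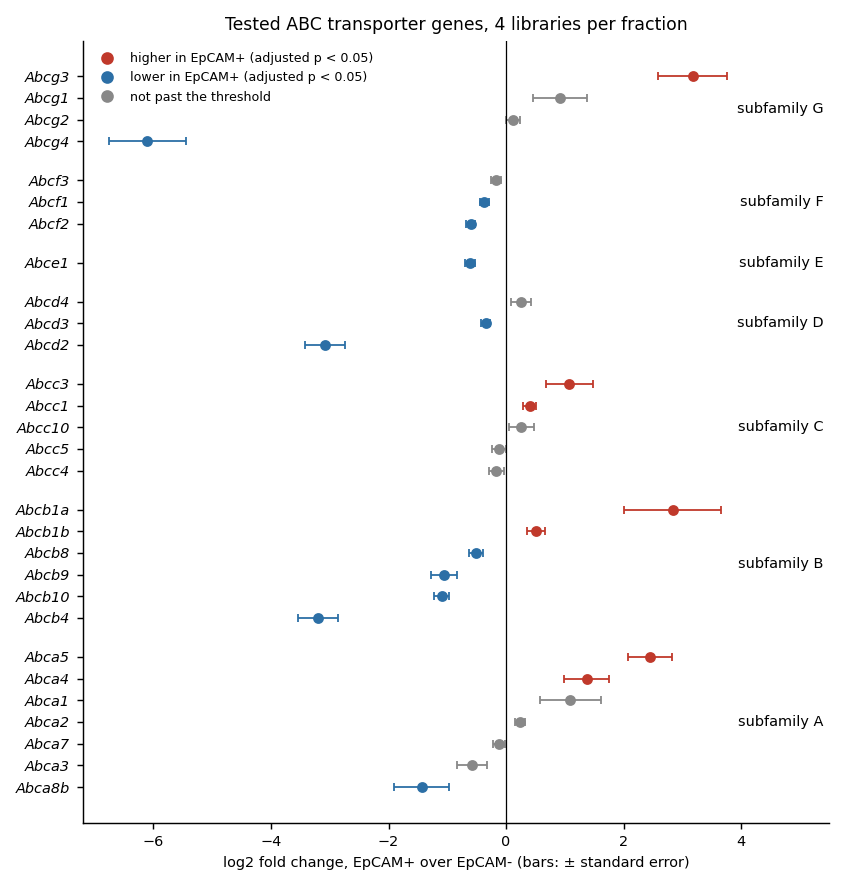
Log2 fold change (x axis, EpCAM+ over EpCAM- cells, 4 libraries each) of 29 tested ABC genes (y axis, grouped by subfamily), with bars for the standard error. The 7 higher genes (red) lie to the right of 0 and 11 lower genes (blue) to the left, from -6.10 for *Abcg4* to 3.17 for *Abcg3*, and the other 11 are grey.

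Library totals were 15225714 to 17073546 counts in EpCAM+ and 14114491 to 15929923 counts in EpCAM- cells (exact permutation p = 0.114, two-sided). More genes had a count in EpCAM+ libraries, 19992 to 20310 against 18286 to 18746 in EpCAM- libraries (exact permutation p = 0.0286, two-sided). The floor used here, 3 counts, equals 0.168 to 0.222 CPM (reads per 1000000 of the TMM-scaled library), which covers counting error only. *Epcam*, the gene of the sort, was at 161 to 234 CPM in EpCAM+ and at 1.25 to 8.99 CPM in EpCAM- cells. *Zeb1* had 261 to 373 counts in EpCAM+ and 129 to 214 counts in EpCAM- libraries. Its level was higher in EpCAM+ cells (log2 fold change 0.72, SE 0.17, adjusted p = 0.00798, edgeR). A count of the whole gene does not show whether the floxed exon was lost. Stem and progenitor markers were present in both fractions, with 8 of 9 higher in EpCAM+ cells and a summed level of 2228 to 2562 against 1094 to 1682 CPM. Markers of other blood cells moved with the fractions too: the 6 erythroid markers summed to 103 to 274 CPM in EpCAM+ and 2072 to 6962 CPM in EpCAM- cells (6 of 6 lower), 4 of 9 neutrophil markers were lower (summed 1097 to 1853 against 11942 to 18563 CPM), and 4 of 6 mast cell and basophil markers were lower (summed 69.2 to 92.4 against 237 to 497 CPM). None of these lists had a marker at 0 in all libraries. The lower neutrophil markers were *Mpo*, *Elane*, *Prtn3* and *Ctsg*, and *Mpo* alone averaged 781 CPM in EpCAM+ and 10435 CPM in EpCAM- cells. The other neutrophil markers, *Ltf*, *Camp*, *Ngp*, *S100a8* and *S100a9*, had overlapping ranges and did not pass the test. Other lists had markers that were higher in EpCAM+ cells and 0 that were lower. Higher were 5 of 8 dendritic cell markers (summed 225 to 458 against 191 to 240 CPM), 2 of 5 B cell markers (76.1 to 124 against 49.1 to 83.8 CPM) and 2 of 4 plasma cell markers. The shares of neutrophil markers (44.4%) and B cell markers (40%) that differed were near the 42.6% of all tested genes. The B cell marker *Pax5* was at 0 in all libraries. Plasma cell markers summed to 3961 CPM in EpCAM+ replicate 1, to 385 to 668 CPM in the other 3 EpCAM+ libraries and to 169 to 256 CPM in EpCAM- libraries. The part of such differences in the results for ABC genes was not tested, and in bulk RNA fewer cells of a type and less RNA per cell cannot be told apart.

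The P-glycoprotein genes *Abcb1a* and *Abcb1b* and their neighbor *Abcb4* sit side by side on chromosome 5 (GRCm38). *Abcb1a* lies at 8660077 to 8748575, *Abcb1b* at 8798147 to 8866315 and *Abcb4* at 8893717 to 8959231, all on the plus strand, with gaps of 49.6 and 27.4 kb. They moved in opposite directions, with *Abcb1a* and *Abcb1b* higher and *Abcb4*, the gene of the phosphatidylcholine transporter of bile, lower in EpCAM+ cells. Their RefSeq promoters (GRCm38.p6, from 250 bases before to 50 after the start site) are shown for the neighbors *Abcb1b* (chr5:8797897-8798196, plus strand) and *Abcb4* (chr5:8893471-8893770, plus strand). The promoters of *Abca4* (chr3:122044210-122044509, plus strand), *Abca5* (chr11:110337667-110337966, minus strand) and *Abcg3* (chr5:104982668-104982967, minus strand) are shown because these are the higher members that hold the E-box that *Zeb1* is known to bind, CACCTG or its reverse CAGGTG, in capitals.
Abcb1b: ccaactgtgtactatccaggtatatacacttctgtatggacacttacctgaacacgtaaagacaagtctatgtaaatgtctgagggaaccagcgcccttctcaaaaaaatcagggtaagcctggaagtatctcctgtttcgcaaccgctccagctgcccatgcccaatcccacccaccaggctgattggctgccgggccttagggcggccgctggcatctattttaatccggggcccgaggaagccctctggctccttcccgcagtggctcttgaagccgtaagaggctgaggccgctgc
Abcb4: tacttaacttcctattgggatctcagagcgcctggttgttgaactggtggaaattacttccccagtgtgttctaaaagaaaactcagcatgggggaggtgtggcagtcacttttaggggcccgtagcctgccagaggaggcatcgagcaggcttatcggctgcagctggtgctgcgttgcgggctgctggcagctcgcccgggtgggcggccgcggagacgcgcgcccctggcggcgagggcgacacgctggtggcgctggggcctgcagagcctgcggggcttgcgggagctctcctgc
Abca4: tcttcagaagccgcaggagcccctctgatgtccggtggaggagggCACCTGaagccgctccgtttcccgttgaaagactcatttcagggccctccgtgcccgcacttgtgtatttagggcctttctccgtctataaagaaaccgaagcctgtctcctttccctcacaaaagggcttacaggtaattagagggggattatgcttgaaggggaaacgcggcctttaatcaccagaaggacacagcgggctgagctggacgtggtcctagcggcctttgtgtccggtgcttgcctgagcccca
Abca5: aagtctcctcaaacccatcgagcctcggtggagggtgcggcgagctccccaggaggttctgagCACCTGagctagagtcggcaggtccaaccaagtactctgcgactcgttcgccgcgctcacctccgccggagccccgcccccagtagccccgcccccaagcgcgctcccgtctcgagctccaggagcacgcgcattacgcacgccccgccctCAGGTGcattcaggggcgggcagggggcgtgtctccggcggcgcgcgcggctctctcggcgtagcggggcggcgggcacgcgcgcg
Abcg3: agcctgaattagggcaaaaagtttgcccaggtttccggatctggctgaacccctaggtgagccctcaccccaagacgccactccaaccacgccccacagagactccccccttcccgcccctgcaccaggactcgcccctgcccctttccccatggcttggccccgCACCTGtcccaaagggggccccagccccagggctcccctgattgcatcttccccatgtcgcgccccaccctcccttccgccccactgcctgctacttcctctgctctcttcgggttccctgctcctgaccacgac
The E-box lay 205 bases before the start site in *Abca4*, 187 and 36 bases before it in *Abca5*, and 85 bases before it in *Abcg3*. The printed promoters of *Abcb1b* and *Abcb4* do not contain these letters. The RefSeq promoter of *Abcb1a* (chr5:8566841-8567140, plus strand) lies before the start of that gene in the table and is not shown. RefSeq promoters were matched for 38 of the 50 members, 45 promoters in all, and 17 of the 45 (37.8%) held the E-box on either strand, against 20.2% of the 32851 promoters of the same length. Among promoters of higher members 3 of 5 held it, and among those of lower members 4 of 10, which belong to 3 of 8 genes, *Abca8b*, *Abce1* and *Abcf2*. The GC content of the printed promoters was 55.0% for *Abcb1b*, 64.0% for *Abcb4*, 56.3% for *Abca4*, 72.3% for *Abca5* and 65.3% for *Abcg3*. A match is a run of letters, and binding was not measured here.

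*Abcb4* was lower in EpCAM+ cells. It had 5.88, 5.44, 6.04 and 8.49 CPM in EpCAM+ replicates 1 to 4 and 36.8, 32.8, 77.1 and 89.7 CPM in EpCAM- replicates 1 to 4. All EpCAM- libraries were above all EpCAM+ libraries, and within EpCAM- cells replicates 3 and 4 stood above replicates 1 and 2. The level was 9.15-fold lower in EpCAM+ cells (log2 fold change -3.19, SE 0.34, adjusted p = 0.00019, edgeR). EpCAM- replicates 3 and 4, where *Abcb4* was highest, were also the libraries with the highest erythroid sums, 5157 and 6962 CPM against 2072 and 2351 CPM in replicates 1 and 2. The part of erythroid cells in the level of *Abcb4* was not tested.

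*Abcb1a* and *Abcb1b*, which encode the 2 mouse forms of P-glycoprotein, were higher in EpCAM+ cells. *Abcb1a* had 11, 12, 17 and 13 counts in EpCAM+ replicates 1 to 4 and 0, 6, 0 and 0 counts in EpCAM- replicates 1 to 4. Few reads thus carry the difference, and the EpCAM- reads all come from replicate 2. The log2 fold change was 2.84 (SE 0.82, adjusted p = 0.0189, edgeR), and it was 2.43 (adjusted p = 0.0539) without EpCAM- replicate 3 and 6.67 without EpCAM- replicate 2, where the remaining EpCAM- libraries are all at 0 and the fitted value is no bound. *Abcb1b*, the more abundant of the pair, had 16.5, 16.2, 20.1 and 16.1 CPM in EpCAM+ and 14.0, 13.2, 12.2 and 8.90 CPM in EpCAM- cells. The groups did not overlap, the closest libraries were EpCAM+ replicate 4 and EpCAM- replicate 1, and the change was 1.42-fold (log2 fold change 0.51, SE 0.15, adjusted p = 0.0218). Without EpCAM+ replicate 3 the adjusted p of *Abcb1b* was 0.0705, and without EpCAM- replicate 3 it was 0.0515. Of the runs of 150 bases in the transcripts of *Abcb1a*, 9.71% also occur in *Abcb1b* or in the antisense gene *Gm42686*, and for *Abcb1b* the share is 3.63%, so that a part of the reads of these genes could be split between them.

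The tested mitochondrial and lysosomal members of subfamily B were all lower in EpCAM+ cells, where 20.8% of all tested genes were lower. *Abcb10*, an inner mitochondrial membrane protein that takes part in heme synthesis, had 13.5, 11.2, 14.4 and 12.6 CPM in EpCAM+ and 27.0, 22.7, 32.4 and 28.3 CPM in EpCAM- cells. No EpCAM+ library reached the lowest EpCAM- library, and the level was 2.13-fold lower (log2 fold change -1.09, SE 0.13, adjusted p = 0.000271, edgeR). *Abcb8*, a mitochondrial transporter, ranged from 47.1 to 57.2 CPM in EpCAM+ and from 62.6 to 89.7 CPM in EpCAM- cells (log2 fold change -0.51, SE 0.11, adjusted p = 0.00522). *Abcb9*, a peptide transporter of lysosomes, ranged from 1.83 to 2.53 CPM in EpCAM+ and from 3.56 to 5.62 CPM in EpCAM- cells (log2 fold change -1.05, SE 0.22, adjusted p = 0.00418). *Abcb6*, a porphyrin transporter, was below the filter, with 1, 1, 5 and 3 counts in EpCAM+ and 10, 7, 21 and 5 counts in EpCAM- cells. The highest EpCAM+ count of *Abcb6* equaled the lowest EpCAM- count. When genes with 1 count in any library were tested, its log2 fold change was -2.26 (adjusted p = 0.0215). Of the runs of 150 bases of *Abcb6*, 41.5% lie also in the overlapping gene *Gm29253*, which had 0 counts.

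Genes of mitochondrial iron-sulfur cluster and heme synthesis, in which *Abcb10* takes part, were listed beside it. Of 17 tested, 13 were lower and 1 was higher in EpCAM+ cells (median log2 fold change -0.57). The share that differed was 82.4%, against 42.6% of all tested genes. The erythroid and neutrophil sums given above were lower in EpCAM+ cells too, and their part in this was not tested. *Alas1*, the first enzyme of heme synthesis outside red cells, averaged 53.8 CPM in EpCAM+ and 172 CPM in EpCAM- cells (log2 fold change -1.68, SE 0.16, adjusted p = 0.000165, edgeR). *Glrx5*, a glutaredoxin that hands on iron-sulfur clusters, changed by -1.17 (SE 0.12, adjusted p = 0.000179), and *Cpox*, a later enzyme of heme synthesis, by -1.81 (SE 0.23, adjusted p = 0.000349). *Hscb*, a co-chaperone of cluster transfer, was the member that was higher (0.29, SE 0.09, adjusted p = 0.0306). *Alas2*, the erythroid form of the first enzyme, was not tested and averaged 0.419 and 0.602 CPM.

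**Figure D2:**
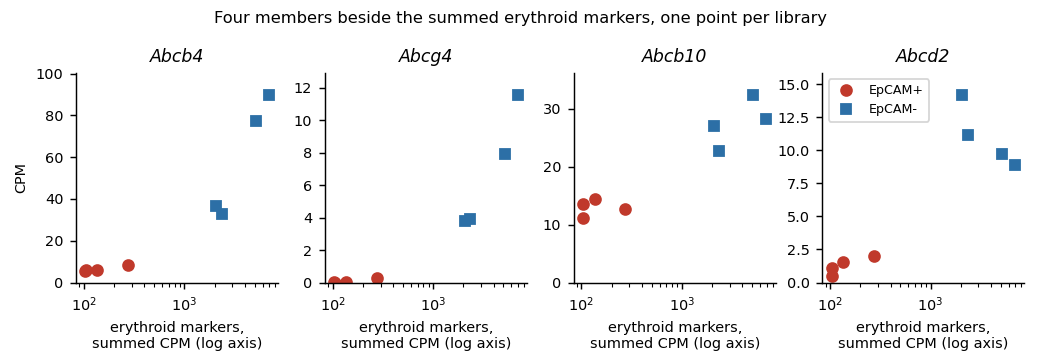
CPM of *Abcb4*, *Abcg4*, *Abcb10* and *Abcd2* (y axes) against the summed CPM of the 6 erythroid markers (x axes, log scale), 1 point per library, with EpCAM+ as red circles and EpCAM- as blue squares. In the EpCAM- libraries *Abcb4* and *Abcg4* are highest at the highest erythroid sums, *Abcd2* is lowest there, and *Abcb10* lies between 22.7 and 32.4 CPM. No link to these sums was tested.

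Subfamily G held both a strongly lower and a strongly higher member, *Abcg4* and *Abcg3*. Of its 4 tested members, 2 differed (50%, against 42.6% of all tested genes). *Abcg4*, a sterol exporter known from neurons and megakaryocyte progenitors, had 0, 1, 1 and 4 counts in EpCAM+ replicates 1 to 4 and 61, 53, 116 and 157 counts in EpCAM- replicates 1 to 4. The gene had few or no reads in EpCAM+ libraries and was present in every EpCAM- library, most in replicates 3 and 4. The log2 fold change was -6.10 (SE 0.65, adjusted p = 0.00019, edgeR) and rests on the 6 EpCAM+ reads. It ran from -7.17, without EpCAM+ replicate 4, to -5.73 when each library was left out. Megakaryocyte markers summed to 126 to 364 CPM in EpCAM+ cells, where *Abcg4* had few or no reads, and to 83.1 to 283 CPM in EpCAM- cells. Of 4 tested, 1 was higher and 0 lower (25%, against 42.6% of all tested genes). In EpCAM- replicates 1 to 4 these markers summed to 190, 83.1, 244 and 283 CPM. Both the megakaryocyte and the erythroid sums of that fraction were highest in replicates 3 and 4, as was *Abcg4*. The part of such cells in the level of *Abcg4* was not tested. *Abcg3*, a rodent gene of this subfamily, had 6.21, 6.24, 8.27 and 9.34 CPM in EpCAM+ and 1.93, 0, 0.546 and 0.735 CPM in EpCAM- cells. Every EpCAM+ library was above every EpCAM- library, among which replicate 1 was highest and replicate 2 held no read. The level was 9.01-fold higher (log2 fold change 3.17, SE 0.59, adjusted p = 0.0021), with values from 2.77 to 4.10 when each library was left out, the highest without EpCAM- replicate 1.

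*Abcg2*, the best known exporter gene of stem cells, did not pass the test. It had 82.8, 95.7, 95.3 and 76.3 CPM in EpCAM+ and 70.7, 68.1, 90.4 and 91.7 CPM in EpCAM- cells. The groups overlapped, and in replicate number 4 the EpCAM- library was the higher of the pair. The log2 fold change was 0.13 (SE 0.12, adjusted p = 0.415), and no alternative brought it past the threshold (log2 fold change 0.05 to 0.25).

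*Abcg1* and *Abca1*, which export cholesterol to lipoproteins, were higher in EpCAM+ cells within each replicate number, while their levels varied widely between the numbers. *Abca1* had 8.17, 6.46, 5.70 and 1.69 CPM in EpCAM+ replicates 1 to 4 and 4.18, 2.74, 2.66 and 0.662 CPM in EpCAM- replicates 1 to 4. *Abcg1* had 41.4, 37.5, 30.3 and 13.4 CPM in EpCAM+ and 25.0, 23.5, 11.3 and 5.07 CPM in EpCAM- cells. For both genes replicate 4 was the lowest library of its fraction, and the other 3 numbers alone would not overlap. Without the replicate numbers neither gene passed the test (*Abca1* log2 fold change 1.09, SE 0.52, adjusted p = 0.114, and *Abcg1* 0.92, SE 0.46, adjusted p = 0.128, edgeR). With the replicate number as a block, both were higher in EpCAM+ cells (1.13, adjusted p = 0.00169, and 1.02, adjusted p = 0.000898). Without both replicate 4 libraries, a setting chosen after seeing the data, both passed as well (1.07, adjusted p = 0.0168, and 0.86, adjusted p = 0.0405). *Abca1* also passed without EpCAM+ replicate 4 alone (1.38, adjusted p = 0.0338). Replicate 4 was the lowest library of both fractions in 4 of the 31 tested members, *Abca1*, *Abcg1*, *Abca4* and *Abcb1b*, and the same was true of replicate 1 in 4, of replicate 2 in 3 and of replicate 3 in 2 members.

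**Figure D3:**
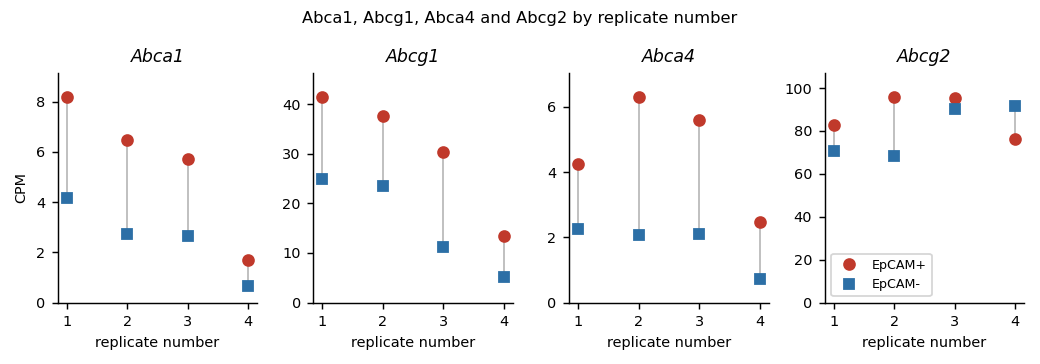
CPM (y axes) of *Abca1*, *Abcg1*, *Abca4* and *Abcg2* by replicate number (x axes), with EpCAM+ as red circles, EpCAM- as blue squares and a line that joins the libraries of the same number. *Abca1*, *Abcg1* and *Abca4* are higher in EpCAM+ cells at each of the 4 numbers and lowest at number 4, while *Abcg2* is higher in EpCAM- cells at number 4.

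Genes of sterol efflux and of the sterol-sensing receptors that control *Abca1* and *Abcg1* differed at a share near that of all tested genes (7 of 15, 46.7%, against 42.6%), with 4 higher, 3 lower and a median log2 fold change of -0.02. *Srebf2*, the regulator of cholesterol synthesis, was higher (0.69, SE 0.08, adjusted p = 0.000264, edgeR), as was *Npc1*, which releases cholesterol from lysosomes (1.11, SE 0.16, adjusted p = 0.000707). *Scarb1*, a lipoprotein receptor, was lower (-0.59, SE 0.07, adjusted p = 0.000346). The receptors *Nr1h2* and *Nr1h3* did not pass the test (-0.10, adjusted p = 0.382, and 0.34, adjusted p = 0.407).

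In subfamily A, 3 of 7 tested members passed the threshold (42.9%, against 42.6% of all tested genes). Of these, 2 were more than 2-fold higher and 1 more than 2-fold lower. *Abca1*, described above, did not pass the main test. *Abca5*, a protein of lysosomes and endosomes, had 1.63, 1.08, 1.84 and 1.23 CPM in EpCAM+ and 0.312, 0.222, 0.341 and 0.147 CPM in EpCAM- cells. Each EpCAM+ library was above each EpCAM- library, and the level was 5.46-fold higher (log2 fold change 2.45, SE 0.37, adjusted p = 0.000782, edgeR). The counts of *Abca5* were 25, 19, 33 and 19 in EpCAM+ and 5, 3, 5 and 2 in EpCAM- cells. Few EpCAM- reads thus set the fold, and EpCAM- replicates 2 and 4 were at or under the floor of 3 counts. *Abca4*, a retinoid-lipid transporter known from photoreceptors, had 4.25, 6.29, 5.59 and 2.46 CPM in EpCAM+ and 2.25, 2.07, 2.12 and 0.735 CPM in EpCAM- cells. The fractions did not overlap, although EpCAM+ replicate 4 lay close to EpCAM- replicate 1, and the level was 2.58-fold higher (log2 fold change 1.37, SE 0.38, adjusted p = 0.0149). *Abca5* is the last gene of a cluster on chromosome 11 with *Abca8b*, *Abca8a*, *Abca9* and *Abca6* (109932190 to 110337716, minus strand), and the genes of this cluster did not move together. *Abca8b* had 8, 13, 4 and 3 counts in EpCAM+ and 17, 10, 26 and 14 counts in EpCAM- cells, with a log2 fold change of -1.44 (SE 0.47, adjusted p = 0.0301). Its CPM were separated only narrowly, by EpCAM+ replicate 2 (0.737) and EpCAM- replicate 2 (0.740), and the adjusted p rose to 0.0856 without EpCAM+ replicate 3, 0.0751 without EpCAM+ replicate 4, 0.0964 without EpCAM- replicate 3 and 0.0507 without EpCAM- replicate 4. Its exons overlap by 241 bases those of *Gm11697* on the other strand, which had 259 counts against 95 of *Abca8b*, and whether the reads were counted by strand is not given in the sources used here. *Abca9* was below the filter, with 0, 0, 0 and 2 counts in EpCAM+ and 3, 8, 16 and 10 counts in EpCAM- cells. Its mean CPM in EpCAM- cells was 3.58 times the mean floor of 3 counts per library in EpCAM+ cells. This is a ratio of means, and EpCAM- replicate 1 was itself at the floor. With genes of 1 count in any library tested, the adjusted p of *Abca9* was 0.00563. *Abca8a* had 0 counts in all libraries, and *Abca6* at most 4.

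The other tested members of subfamily A did not pass the test. *Abca2*, a lysosomal lipid transporter, ranged from 36.6 to 43.9 CPM in EpCAM+ and from 31.3 to 36.7 CPM in EpCAM- cells (log2 fold change 0.24, adjusted p = 0.0523, edgeR). Its ranges overlapped by 1 library of each fraction, and its adjusted p was 0.0458 with the replicate number as a block and 0.0357 without EpCAM+ replicate 4. *Abca3*, which loads surfactant lipids, ranged from 7.15 to 13.1 CPM and from 9.69 to 21.0 CPM (-0.58, adjusted p = 0.0928), and its adjusted p was 0.0351 without EpCAM- replicate 2 (-0.75). A gene on the other strand, *D330041H03Rik* with 450 counts, shares 914 exon bases with *Abca3*. *Abca7*, a phospholipid transporter, ranged from 21.5 to 24.4 CPM and from 21.4 to 27.5 CPM (-0.12, adjusted p = 0.364).

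In subfamily C, *Abcc1* and *Abcc3* were higher in EpCAM+ cells and no tested member was lower (40% of 5 tested, against 42.6% of all tested genes). *Abcc1*, which exports glutathione conjugates such as leukotriene C4, had 42.8, 37.9, 46.7 and 44.0 CPM in EpCAM+ and 30.9, 27.2, 34.6 and 36.8 CPM in EpCAM- cells. The lowest EpCAM+ library was just above the highest EpCAM- library, and the change was 1.32-fold (log2 fold change 0.40, SE 0.11, adjusted p = 0.014, edgeR). *Abcc3*, which exports glucuronide conjugates, had 18, 14, 15 and 21 counts in EpCAM+ and 6, 5, 5 and 12 counts in EpCAM- cells. EpCAM- replicate 4 reached into the EpCAM+ range. The log2 fold change was 1.08 (SE 0.40, adjusted p = 0.0492), and when each library was left out it stayed past the threshold in 1 of 8 fits, that without EpCAM- replicate 4 (adjusted p = 0.016), while the adjusted p reached 0.127 in the others. With DESeq2 its adjusted p was 0.108, with the size factors of DESeq2 in edgeR it was 0.051, and with genes of 1 count in any library tested it was 0.111. *Abcc4* and *Abcc5*, exporters of cyclic nucleotides, and *Abcc10* had overlapping ranges and log2 fold changes of -0.16, -0.12 and 0.26 (adjusted p = 0.309, 0.454 and 0.347). *Abcc2*, the conjugate exporter of bile canaliculi, was not tested and had 4, 3, 2 and 2 counts in EpCAM+ and 5, 5, 7 and 10 counts in EpCAM- cells.

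Glutathione genes, whose products make the substrates of *Abcc1*, were lower in 6 and higher in 2 of 13 tested (median log2 fold change -0.49). The share that differed was 61.5%, against 42.6% of all tested genes. *Gstt1* and *Gstk1*, both glutathione transferases, were higher (1.63, SE 0.17, adjusted p = 0.000179, and 0.86, SE 0.10, adjusted p = 0.000226, edgeR), and *Gsr*, which reduces glutathione, was lower (-0.95, SE 0.11, adjusted p = 0.000297). Of 6 tested xenobiotic receptors and target genes, 1 was higher and 2 were lower (50%, against 42.6% of all tested genes, median -0.31). *Ahr*, the aryl hydrocarbon receptor, averaged 8.85 CPM in EpCAM+ and 3.41 CPM in EpCAM- cells (1.37, SE 0.23, adjusted p = 0.0014). *Cyp1a1*, a target of this receptor, had 0, 0, 0 and 2 counts in EpCAM+ and 18, 24, 67 and 78 counts in EpCAM- cells (adjusted p = 0.00057). *Nfe2l2*, a regulator of antioxidant genes, was lower (-0.57, SE 0.09, adjusted p = 0.000841).

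**Figure D4:**
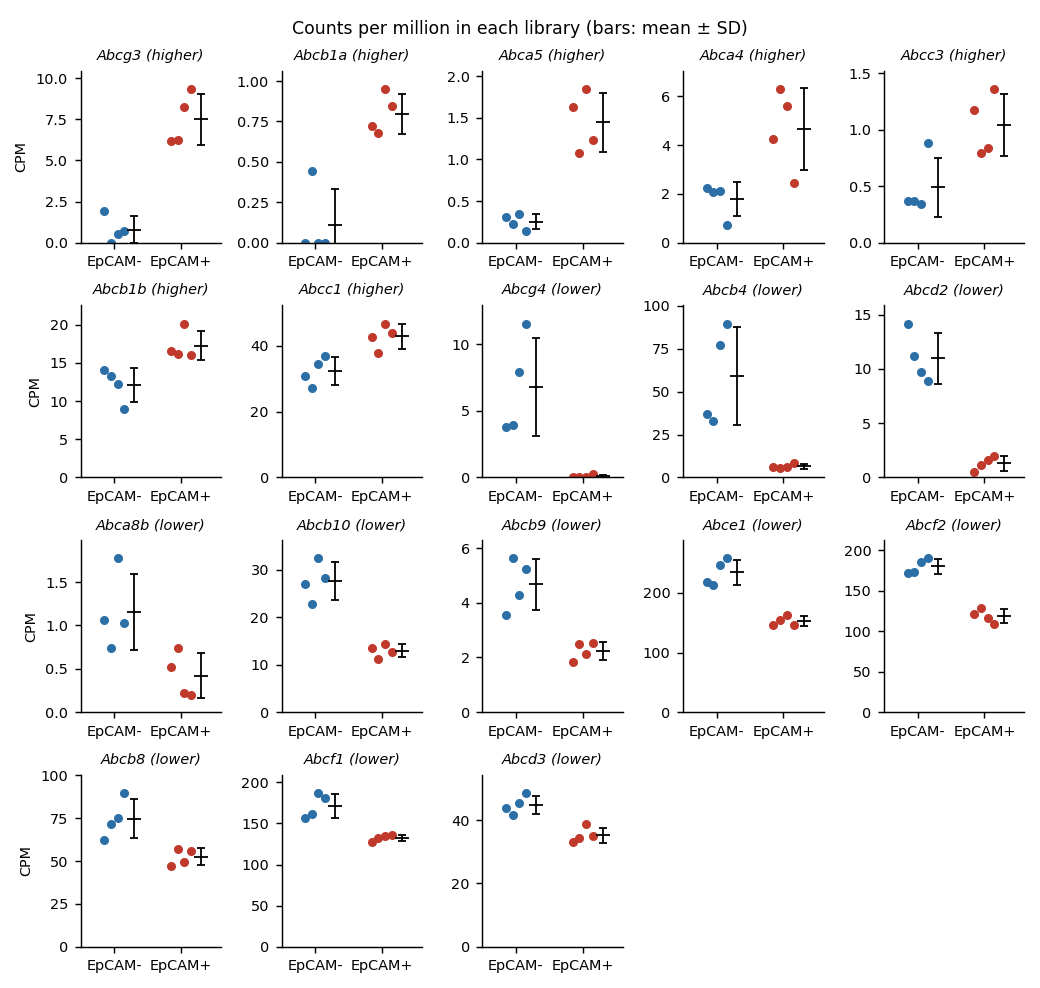
CPM (y axes, from 0) of 18 ABC genes that differed between the fractions, with 1 point per library (blue EpCAM-, red EpCAM+) and black bars for the mean ± SD of the 4 libraries (cut at 0). The first 7 panels are higher in EpCAM+ cells and the other 11 lower, and the fractions overlap in *Abcc3* but in none of the other 17.

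In subfamily D, which holds the peroxisomal transporters, 2 of 4 members were lower and none was higher (50%, against 42.6% of all tested genes). *Abcd2*, which takes very-long-chain fatty acids into peroxisomes, had 0.458, 1.13, 1.56 and 2.01 CPM in EpCAM+ and 14.2, 11.2, 9.69 and 8.90 CPM in EpCAM- cells. The fractions were far apart, and the number with the lowest EpCAM+ library had the highest EpCAM- library. The level was 8.45-fold lower in EpCAM+ cells (log2 fold change -3.08, SE 0.34, adjusted p = 0.000226, edgeR). Unlike *Abcb4* and *Abcg4*, *Abcd2* was highest in the EpCAM- library with the lowest erythroid sum. The neutrophil sums of EpCAM- replicates 1 to 4 were 18563, 13661, 15368 and 11942 CPM, and single neutrophil markers differed in their order. *Mpo* had 12205, 9773, 11023 and 8739 CPM in these libraries. *Prtn3* had 1350, 1303, 910 and 713 CPM and fell from replicate 1 to replicate 4, as *Abcd2* did. *Mpo* and the other lower neutrophil markers did not fall in this order. *Elane* had 3362, 861, 2033 and 1085 CPM, and *Ctsg* had 1446, 1678, 1267 and 1236 CPM. The part of such cells in the level of *Abcd2* was not tested. *Abcd3*, the abundant peroxisomal membrane transporter of the family, ranged from 33.1 to 38.6 CPM in EpCAM+ and from 41.7 to 48.5 CPM in EpCAM- cells (log2 fold change -0.35, SE 0.08, adjusted p = 0.00747). *Abcd4*, which exports cobalamin from lysosomes, did not pass the test (0.25, adjusted p = 0.261).

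Of 14 peroxisomal fatty acid oxidation and import genes, 3 were higher and 0 lower (median log2 fold change -0.08), a share of 21.4% against 42.6% of all tested genes. *Slc27a2*, an acyl-CoA synthetase of very-long-chain fatty acids, was higher by 1.70 (SE 0.24, adjusted p = 0.00055, edgeR), and *Phyh*, an enzyme of branched-chain oxidation, by 0.37 (SE 0.07, adjusted p = 0.00271). Of 5 genes of cobalamin handling, 2 were lower and 0 higher, a share of 40% against 42.6% of all tested genes. The lower ones were *Mmachc* (-0.42, SE 0.10, adjusted p = 0.0072) and *Mmadhc* (-0.22, SE 0.06, adjusted p = 0.0146). *Lmbrd1*, the partner of *Abcd4*, did not pass the test (0.20, adjusted p = 0.145).

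The translation members of subfamilies E and F were among the most abundant per length, and all but *Abcf3* were lower in EpCAM+ cells by modest amounts. Among all tested genes, 20.8% were lower. *Abce1*, which splits ribosomes after termination, had 147, 155, 163 and 146 CPM in EpCAM+ and 219, 214, 247 and 258 CPM in EpCAM- cells. The fractions were well apart, with a 1.53-fold lower level (log2 fold change -0.62, SE 0.08, adjusted p = 0.000415, edgeR). *Abcf2* had 121, 129, 116 and 109 CPM in EpCAM+ and 171, 174, 185 and 190 CPM in EpCAM- cells. No library overlapped, with a 1.52-fold lower level (log2 fold change -0.60, SE 0.07, adjusted p = 0.0003). *Abcf1*, which binds the initiation factor eIF2, ranged from 128 to 136 CPM in EpCAM+ and from 157 to 187 CPM in EpCAM- cells (log2 fold change -0.37, SE 0.07, adjusted p = 0.00312). *Abcf3* had overlapping ranges, 50.4 to 60.7 CPM and 56.2 to 67.6 CPM, and did not pass the test (-0.17, SE 0.09, adjusted p = 0.138). *Abce1*, *Abcf1*, *Abcf2* and *Abcf3* together made up 46.6 to 47.5% of the summed CPM of all members in EpCAM+ libraries and 51.9 to 54.0% in EpCAM- libraries, ranges that do not overlap.

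The translation factors that work with these proteins were lower as well, 8 of 11 tested and 0 higher (median log2 fold change -0.53). The share that differed was 72.7%, against 42.6% of all tested genes. *Etf1*, the factor that reads stop codons, changed by -0.83 (SE 0.08, adjusted p = 0.000175, edgeR), *Eif3j1*, a ribosome recycling factor, by -0.73 (SE 0.08, adjusted p = 0.000229), and *Gspt1*, the partner of *Etf1*, by -0.53 (SE 0.07, adjusted p = 0.000596). *Pelo* and *Hbs1l* act on stalled ribosomes before *Abce1*, and *Hbs1l* was lower (-0.55, SE 0.09, adjusted p = 0.00141) while *Pelo* did not pass the test (-0.37, adjusted p = 0.311).

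**Figure D5:**
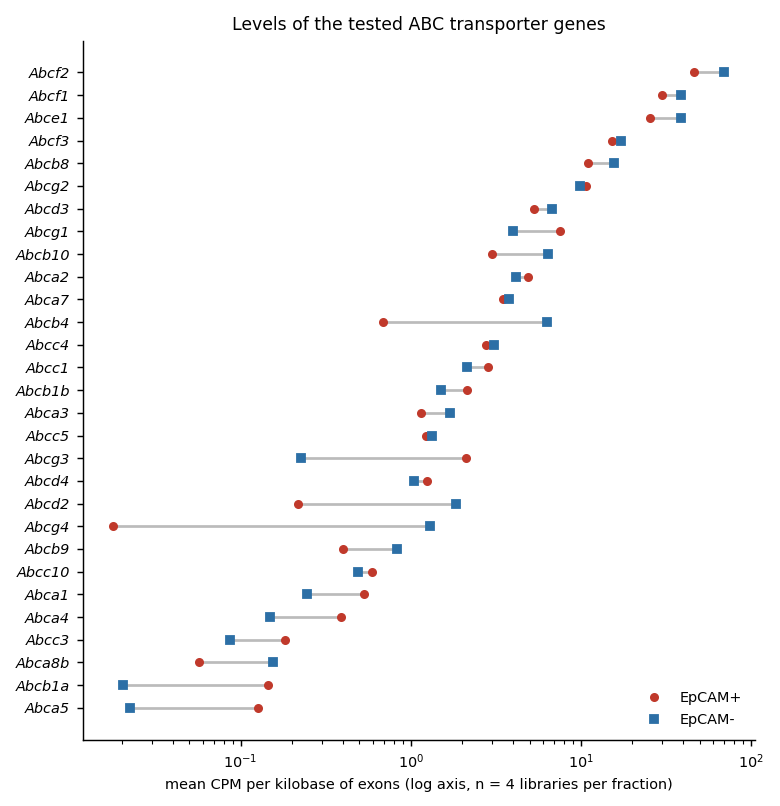
Mean CPM per kilobase of exons (x axis, log scale) of 29 tested ABC genes (y axis, ordered by the mean of both fractions), with EpCAM+ as red circles and EpCAM- as blue squares, 4 libraries each. *Abcf2*, *Abcf1* and *Abce1* are at the top in both fractions, and *Abcb4*, *Abcg3*, *Abcd2*, *Abcg4* and *Abcb1a* have the widest gaps.

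Levels were compared between genes as mean CPM per kilobase of exons. In EpCAM+ cells the order began with *Abcf2* (46.2), *Abcf1* (30.1) and *Abce1* (25.5), with *Abcf3* at 15.2, and in EpCAM- cells with *Abcf2* (70.1), *Abce1* (39.0), *Abcf1* (38.9), *Abcf3* (17.2) and *Abcb8* (15.8). In EpCAM- cells *Abce1* and *Abcf1* differed by less than their spread. By the deposited FPKM, which rest on shorter gene lengths, *Abcf1* was in place 1 and *Abce1* in place 2 in both fractions, and *Abcf2* was in place 5 in EpCAM+ and in place 3 in EpCAM- cells, so that the order of the most abundant members depends on the lengths used. *Abcb8*, a membrane transporter, was at 11.1 in EpCAM+ and at 15.8 in EpCAM- cells. *Abcg2* was at 10.7 and 9.84 and stood in place 7 in each fraction, and by FPKM it stood in place 3 in EpCAM+ and place 5 in EpCAM- cells. *Abcb4* moved from place 21 in EpCAM+ to place 10 in EpCAM- cells, *Abcg4* from 34 to 21, and *Abcg3* from 17 to 26. Summed over all members, CPM were 930 to 999 in EpCAM+ and 1123 to 1331 in EpCAM- libraries (exact permutation p = 0.0286, two-sided, the smallest that 4 against 4 unpaired libraries allow). The translation genes *Abce1*, *Abcf1*, *Abcf2* and *Abcf3* summed to 442 to 471 CPM in EpCAM+ and 607 to 691 CPM in EpCAM- libraries. Without them, the remaining members summed to 488 to 529 CPM and 516 to 640 CPM, ranges that overlap.

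Of the 19 members that were not tested, 11 had 0 counts in all libraries (*Abca12*, *Abca14*, *Abca15*, *Abca16*, *Abca8a*, *Abcb11*, *Abcb5*, *Abcc12*, *Abcc9*, *Abcg5* and *Abcg8*), which allows up to 0.168 to 0.222 CPM per library. They include the bile salt exporter *Abcb11* and the intestinal and hepatic sterol exporters *Abcg5* and *Abcg8*. *Abcc6* and *Abcc8* had 1 and 2 counts in all, and *Abca13* and *Abca6* at most 5 in any library. *Abca17* had 12, 1, 7 and 15 counts in EpCAM+ and 3, 3, 4 and 1 counts in EpCAM- cells, an overlapping pattern. *Kcnj8* and *Kcnj11*, the channel partners of *Abcc8* and *Abcc9*, were not tested either.

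*Tap1*, *Tap2* and *Cftr* are ABC proteins under other symbols and stand outside the 50. *Tap1* and *Tap2*, which carry peptides to class I molecules, averaged 191 and 187 CPM in EpCAM+ and 156 and 171 CPM in EpCAM- cells and did not pass the test (log2 fold change 0.29, adjusted p = 0.135, and 0.12, adjusted p = 0.279, edgeR). *Cftr* was not tested. In the peptide loading complex around them, *B2m*, the light chain of class I molecules, was higher (0.48, SE 0.10, adjusted p = 0.00491). The chaperones *Canx* (-0.78, SE 0.09, adjusted p = 0.000228), *Calr* (-0.76, SE 0.09, adjusted p = 0.000326) and *Pdia3* (-0.36, SE 0.09, adjusted p = 0.00951) were lower. Of 8 tested in all, 50% differed, against 42.6% of all tested genes, and the median was 0.20.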

How the data were processed

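RNA-Seq was performed on 8 libraries, 4 of *EpCAM+* and 4 of *EpCAM-* LSK cells. Per the labels, RNA was amplified with SMART-Seq v4, 1 ng of cDNA entered each library, and 150-bp paired-end reads were sequenced. Reads carry no molecular identifiers, so that amplified copies count as reads. Reads were aligned to GRCm38.p6 with STAR 2.6.1d and counted per gene with featureCounts 1.5.0-p3, according to the submitters' processing notes. The authors deposited whole-number counts without normalization, which all tests use. The deposited FPKM, computed by the authors from their counts and gene lengths, served only to check the order of levels between genes. The authors' columns of fold changes and p-values, from DESeq2 1.20.0 for the fractions and for same-numbered pairs, were not used.

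Counts were tested in R 4.3.3 with edgeR 4.0.16 (filterByExpr, TMM scaling, quasi-likelihood F test, two-sided, Benjamini-Hochberg adjustment over 13560 genes, threshold 0.05), and the procedure was tested on simulated data. CPM are counts scaled by the TMM-adjusted total of the tested genes. A standard error is the log2 fold change divided by the square root of F. Single values were compared with exact permutation tests. Replicate numbers pair the samples: across genes, the deviations from the fraction mean correlated at 0.205 to 0.356 in the 4 pairs of equal number and at -0.216 to 0.0396 in the 12 pairs of unequal number. The main test leaves the pairing out, as the study states no block, and the permutation tests leave it out too. No library had been deposited under 2 names (in 12 comparisons inside the fractions, chi-square over its degrees of freedom was 9.80 to 91.7).

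Members and gene lists were chosen with earlier results of these data known. Named were every member past the threshold, known exporters of stem cells and sterols whatever their test, and up to 3 genes per partner list with the smallest adjusted p. *Hbs1l*, *Pelo*, *Nr1h2*, *Nr1h3*, *Hscb*, *Alas2*, *Lmbrd1* and *Pdia3*, and members below the threshold or the filter, were added after their values were seen. Some members and partner genes are not reported here by name, but stay in the counts. *Gcn1* of the translation list was not matched. Gene positions were matched to GENCODE M21 (50 of 50 members, 48 with the same start and end). Alternatives were DESeq2 1.42.0, other scalings and filters, the replicate number as a block and each library left out. The block with upper-quartile scaling and the fit without both replicate 4 libraries were added after seeing the data. Plots used matplotlib 3.10.9 (Python 3.11.15).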

Additional observations from a re-analysis of the deposited data

Results flagged for a closer look

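In 6 of the 62 groups of 4 libraries that the 31 tested members form, the highest or lowest library stood apart from the other 3 by Dixon's criterion, the gap to the nearest library divided by the range of the group. Chance gives about 1 in 20 groups. *Abca4* in EpCAM- replicate 4 was low, at 0.735 CPM against 2.07 to 2.25 CPM (ratio 0.884). *Abca7* was low in replicate 3 of both fractions, at 21.5 CPM against 23.9 to 24.4 CPM in EpCAM+ cells (0.841) and at 21.4 CPM against 26.6 to 27.5 CPM in EpCAM- cells (0.850). *Abcb1a* in EpCAM- replicate 2 was high, at 0.444 CPM against 0 in the other 3 libraries (ratio 1). *Abcb1b* in EpCAM+ replicate 3 was high, at 20.1 CPM against 16.1 to 16.5 CPM (0.886). *Abcc3* in EpCAM- replicate 4 was high, at 0.883 CPM against 0.341 to 0.375 CPM (0.939).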

How the results depend on the processing

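No tested member changed sign under any alternative. With the replicate number as a block, 11 members were higher, since 4 more passed, among them *Abca1*, *Abcg1* and *Abca2*, and it changed no other call. With the block and upper-quartile scaling 11 were higher too, and *Abca8b* no longer passed (adjusted p = 0.0562). With at least 10 counts in every library, 23 members were tested and 4 were higher. The median log2 fold change was -0.036 with upper-quartile scaling, -0.037 with library totals and -0.030 with the block and upper-quartile scaling, where the median of all genes was 0.11 in each. *Abca2* was also called with upper-quartile scaling and with library totals. DESeq2 called 20 members (6 higher, 14 lower) of 36 tested. Leaving out each library in turn gave 15 to 19 calls, 4 to 8 higher and 11 to 13 lower, and medians of -0.20 to -0.10. The 4 higher members arose without EpCAM- replicate 3, where *Abcb1a*, *Abcb1b*, *Abcc3* and *Abca8b* did not pass. Without both replicate 4 libraries, 18 members were called, and *Abcb1a* (adjusted p = 0.0764) and *Abca8b* (0.0987) no longer passed. Depth limits the members with few reads, *Abcb1a*, *Abca5*, *Abcc3*, *Abca8b* and *Abcg4*. The causes of these changes were not tested.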
